A study of Mus musculus with 6 samples.

Results

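The aminoacyl-tRNA synthetase genes were compared between WT and RORγt N275D Th17 cells. Members were found by gene symbol alone, as every symbol made of an amino acid letter followed by ars, with or without a closing 1, 2 or 3, plus Eprs, Farsa and Farsb. This gave 37 of the 16244 genes in the deposited table, of which 20 encode cytosolic enzymes and 17, whose symbols end in 2, encode mitochondrial enzymes. Tarsl2, a paralog of the threonine enzyme, has another symbol and was not counted. The cells were splenic naive CD4+ T cells of C57BL/6 background, either wild type (WT) or carrying the N275D knockin change in RORγt, the nuclear receptor that directs the Th17 program. According to the methods, the mice were 6 to 12 weeks old and of both sexes, and the WT animals were bought while the knockin animals came from another laboratory. Both genotypes were stimulated with anti-CD3 and anti-CD28 for 3 days under pathogenic Th17 conditions, which the methods give as TGF-β, IL-6, IL-23, IL-1β and antibodies to IL-4 and IFN-γ. The design text names only IL-6, IL-1β and IL-23. The knockin change is in the germline, so it was present before the culture began. The sources do not say whether the RNA-seq cells were homozygous, or whether the 3 libraries of a genotype came from separate animals or cultures. The p-values below therefore measure only the spread between these libraries, which may be technical.

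Aminoacyl-tRNA synthetases join each amino acid to its tRNA, the step that sets which amino acid a codon is read as. Animal cells hold a cytosolic set that serves the ribosomes of the cytosol and a mitochondrial set, also encoded in the nucleus, that serves the few proteins made inside mitochondria. Gars and Kars each make both forms from the same gene, so that a mitochondrial Gars2 or Kars2 does not exist. Several cytosolic enzymes sit together in the multisynthetase complex. When amino acids run short, uncharged tRNA activates the kinase GCN2, and the transcription factor ATF4 then induces a subset of the cytosolic synthetases together with genes of amino acid synthesis and transport. T cells greatly expand protein synthesis after activation.

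The values below are normalized reads as the authors deposited them. Taken as whole multiples of 1 factor per library, they correspond to between 17659035 and 18510878 reads on genes per library, an estimate that rests on factors close to 1 (0.9823 to 1.009). Log2 fold changes compare N275D with WT on the scale log2(normalized reads + 1) and are given with their standard error or their 95% confidence limits. A mean of 10 or more over the 6 libraries was reached by 11908 genes. These were tested with limma, with p-values adjusted over all of them by the Benjamini-Hochberg method, and an adjusted p under 0.05 counted as a call. All 37 synthetases passed the filter on low values. The counts per gene do not read out the amino acid change. Of the 7 Th17 markers, 4 were called higher and 3 lower in N275D cells. Markers of other cells also moved with genotype. The 6 B cell markers summed to between 1117 and 1155 normalized reads in WT and between 1687 and 1754 in N275D libraries, most of it Ebf1. Of the 5 B cell markers tested, 4 were called higher, while Ms4a1 was at 0 in 2 WT libraries and reached at most 9.88 reads. The 5 myeloid markers summed to between 46.4 and 52.5 in WT and between 43.1 and 56.9 in N275D libraries. Of the 2 that passed the filter, Cd14 was called higher (11.3 to 22.9 reads in the means) and Adgre1 lower (22.6 to 6.64). The 4 CD8 T and NK cell markers in the table summed to between 182 and 195 in WT and between 251 and 281 in N275D libraries, with 2 of the 3 tested called higher. These were Cd8b1 (98.9 to 148 reads in the means) and Eomes (56.4 to 91.7). Cd8a did not rise with them (32.6 to 27.6) and was not called. Klrb1c was at 0 in every N275D library and between 0 and 2.02 reads in WT libraries, under the filter. The part of these cells in the values below was not tested. In such bulk samples, fewer cells of a type and less RNA per cell cannot be told apart.

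Most mitochondrial synthetase mRNAs were lower in N275D cells, while the cytosolic ones moved in both directions. In N275D cells, 7 of the 20 cytosolic members were called higher and 3 lower, with a median log2 fold change of 0.04. In contrast, none of the 17 mitochondrial members was called higher by limma and 12 were called lower, with a median of -0.17. Across all genes tested the median was -0.003, with 24.7% called higher and 26.1% called lower. The cytosolic share of higher calls was thus somewhat above that background and its share of lower calls below it, while most mitochondrial members were called lower. No mitochondrial member was higher at an unadjusted p under 0.05 either. All changes were small: none of the 37 members reached 2-fold, whether called or not. Of all genes tested, 3.59% were both called and changed at least 2-fold. By non-overlap of the 3 libraries against 3, 8 cytosolic members lay above WT and 3 below it, and 0 mitochondrial members lay above and 13 below. The background for these counts was 28.1% of genes above and 29.6% below. The cytosolic split depended on scaling: after quantile normalization 12 cytosolic members were called higher and 1 lower, with a median of 0.12, whereas the mitochondrial counts stayed at 0 higher and 12 lower. The mitochondrial members called were not all the same, however. Iars2 lost its call under quantile normalization (-0.08, limma adjusted p = 0.145), and Vars2 gained one (-0.15, limma adjusted p = 0.0364). Without N275D replicate 3 the mitochondrial count of lower calls fell to 5, with a median of -0.15.

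**Figure D1:**
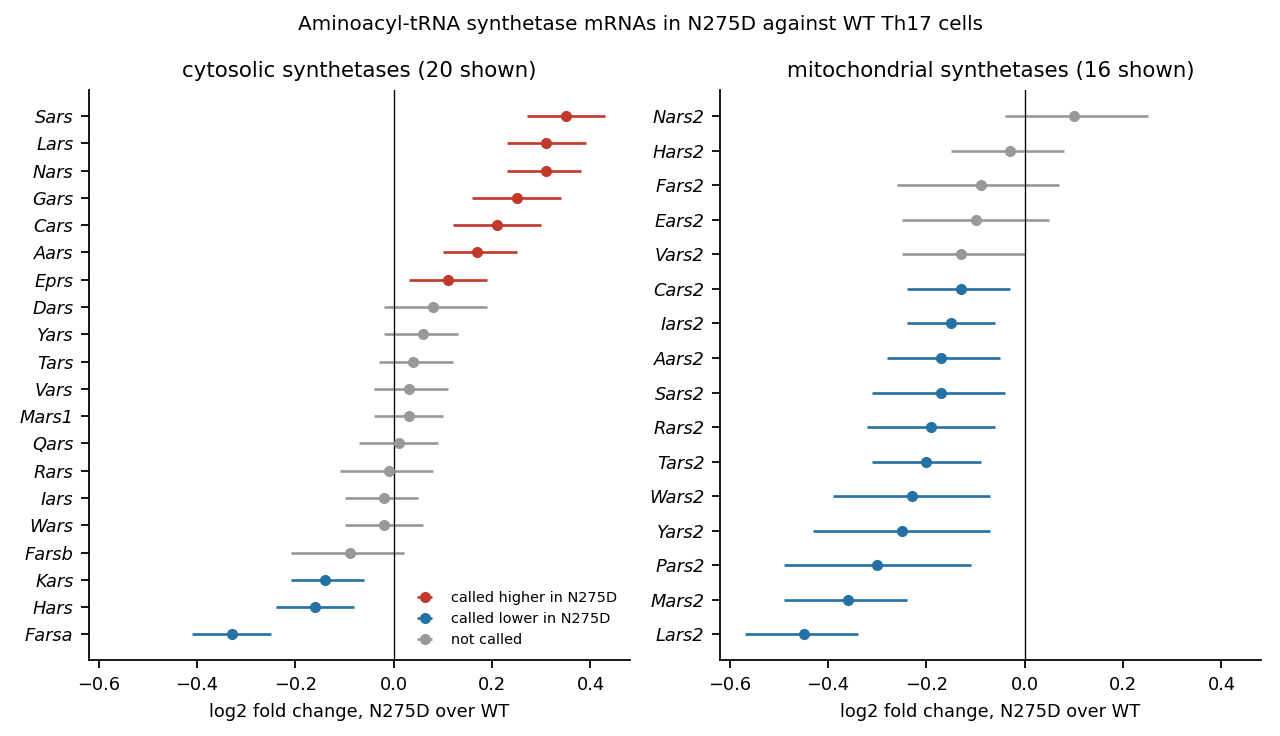
Log2 fold change of each synthetase mRNA in N275D over WT cells (horizontal axis), with 95% confidence limits from limma, for 20 cytosolic genes (left) and 16 of the 17 mitochondrial genes (right), n = 3 libraries per genotype. The cytosolic genes spread on both sides of 0, from -0.33 for Farsa to 0.35 for Sars, and 15 of the 16 mitochondrial genes shown lie below 0.

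Summed over the members, the cytosolic synthetases took 0.57%, 0.567% and 0.553% of the normalized reads of the 3 WT libraries and 0.62%, 0.614% and 0.614% of those of the 3 N275D libraries. The mitochondrial synthetases took 0.065%, 0.0644% and 0.0649% in WT and 0.0592%, 0.059% and 0.0579% in N275D libraries. The first share was higher and the second lower in every N275D library. The summed cytosolic reads were 8.69 ± 0.161 times the mitochondrial ones in WT and 10.5 ± 0.1 times in N275D cells (SD, n = 3), with no overlap between the libraries. The sums are weighted toward the most abundant members.

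The 7 cytosolic members called higher were Sars, Lars, Nars, Gars, Cars, Aars and Eprs. Sars, the serine enzyme (chr3:108424864-108445259, GRCm38.p6), had 7768, 7741 and 7231 normalized reads in WT and 9649, 9662 and 9636 in N275D libraries. This was the largest rise among the members, 27.3% in the means and 0.35 ± 0.04 on the log2 scale (limma adjusted p = 8.73e-07). The 3 N275D libraries were nearly identical, and all lay above the highest WT library. Lars, the leucine enzyme, which also serves as a leucine sensor upstream of mTORC1 (chr18:42202298-42262237), had 4488, 4303 and 4127 reads in WT and 5284, 5284 and 5425 in N275D libraries. It rose by 0.31 ± 0.04 (limma adjusted p = 6.83e-06). Nars, which charges asparagine (chr18:64499655-64516515), had 7959, 7634 and 7577 reads in WT and 9535, 9522 and 9586 in N275D libraries. Its log2 fold change was 0.31 ± 0.03 (limma adjusted p = 1.75e-06), again with no overlap. Nars2 on the mitochondrial side was the only mitochondrial member with a point estimate above 0.

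Gars, the glycine enzyme of both compartments (chr6:55038001-55079504), had 6829, 6709 and 6260 reads in WT and 8283, 7727 and 7601 in N275D libraries, a rise of 0.25 ± 0.04 (limma adjusted p = 0.000114). Its counts do not separate the cytosolic from the mitochondrial form. Cars, which charges cysteine (chr7:143557230-143600090), had 2433, 2423 and 2572 reads in WT and 2987, 2819 and 2801 in N275D libraries, and rose by 0.21 ± 0.04 (limma adjusted p = 0.000571). Aars, the alanine enzyme (chr8:111027778-111055569), had 7452, 7655 and 7743 reads in WT and 8802, 8523 and 8443 in N275D libraries, and rose by 0.17 ± 0.03 (limma adjusted p = 0.000546). In each of these genes the lowest N275D library was above the highest WT library. Eprs, a fused enzyme that charges both glutamate and proline (chr1:185361417-185428360), had 8204, 8217 and 7686 reads in WT and 8605, 8582 and 8842 in N275D libraries. Its rise was the smallest of the 7, at 0.11 ± 0.04 (limma adjusted p = 0.0174), and its call was lost without N275D replicate 3 (limma adjusted p = 0.0818) and without the intensity trend (limma adjusted p = 0.0873).

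The 3 cytosolic members called lower were Farsa, Hars and Kars. Farsa, the catalytic subunit of the phenylalanine enzyme (chr8:84856969-84869257), had 2781, 2784 and 2835 reads in WT and 2185, 2263 and 2232 in N275D libraries. It fell by 20.5% in the means, with a log2 fold change of -0.33 ± 0.04 (limma adjusted p = 3.19e-06). Its partner Farsb, the other subunit of the same tetramer, had a log2 fold change of -0.09 (95% limits -0.21 to 0.02) and was not called. Hars, the histidine enzyme and an autoantigen in myositis (chr18:36766528-36783205), had 4463, 4376 and 4453 reads in WT and 3917, 4112 and 3836 in N275D libraries, a log2 fold change of -0.16 ± 0.04 (limma adjusted p = 0.00188). Kars, the lysine enzyme of both compartments, fell from 6931 ± 150.0 to 6311 ± 225.0 reads (SD, n = 3), a log2 fold change of -0.14 ± 0.04 (limma adjusted p = 0.00606). The 3 genes showed no overlap between genotypes. After quantile normalization the calls of Hars (limma adjusted p = 0.0713) and Kars (limma adjusted p = 0.1) were lost, and that of Farsa was kept.

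The other 10 cytosolic members were not called. These were Dars, Yars, Tars, Vars, Mars1, Qars, Rars, Iars, Wars and Farsb, with log2 fold changes from -0.09 to 0.08 and 95% limits between -0.21 and 0.19. A change of 2-fold lies outside these limits, while changes of the size seen for Aars or Hars lie within the limits of some of them. Wars, the tryptophan enzyme, which is known as a gene induced by IFN-γ, had 2964 ± 63.9 reads in WT and 2916 ± 46.4 in N275D cells (SD, n = 3). Yars was not called although its 3 N275D libraries lay above the 3 WT ones, at 4152 to 4236 against 3990 to 4074 reads.

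**Figure D2:**
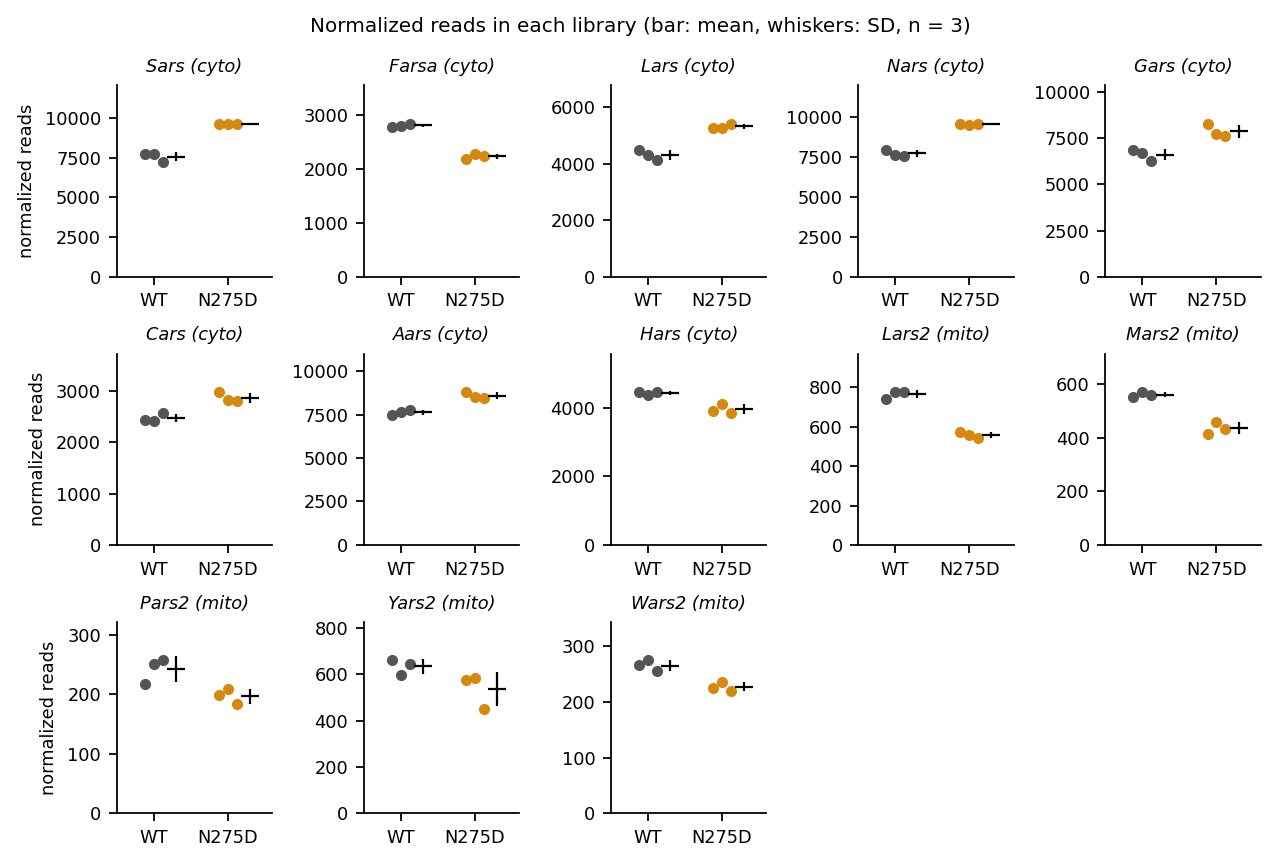
Normalized reads (vertical axes, from 0) in each of the 3 WT (gray) and 3 N275D (orange) libraries for the 8 cytosolic and 5 mitochondrial synthetases with the largest absolute log2 fold change, with the mean and SD beside the points. The genotypes do not overlap in any of the 13 genes, and the shifts are between 0.16 and 0.45 on the log2 scale in size.

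The cytosolic members were also read by a list of 12 that are known from general knowledge as targets of, or linked to, ATF4. These were Aars, Cars, Eprs, Gars, Iars, Lars, Mars1, Nars, Sars, Tars, Wars and Yars. The list was chosen with earlier results of these data known, so that the counts describe its members and test nothing. Of these 12, 7 were called higher and 0 lower, with a median log2 fold change of 0.14. Of the 8 remaining cytosolic members, 0 were called higher and 3 lower, with a median of -0.05. Of all genes tested, 24.7% were called higher and 26.1% lower. After quantile normalization the counts were 10 higher of 12 in the first group and 2 higher and 1 lower of 8 in the second. The rest of the first group, Iars, Mars1, Tars, Wars and Yars, had log2 fold changes from -0.02 to 0.06. The listed members thus ranged from no call to the largest rise of the set. By place in the multisynthetase complex, of the 8 members in the complex, 2 were called higher and 1 lower, and of the 12 outside it 5 were higher and 2 lower, against 24.7% of all genes called higher and 26.1% called lower. The share of higher calls within the complex was thus that of the background. By catalytic fold, 2 of 9 class I members were called higher and 0 lower, compared with 4 higher and 3 lower among 10 class II members, against the same background. Eprs, with a catalytic domain of each class, was counted in neither.

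The promoters of the members were searched for the composite element that ATF4 binds with C/EBP proteins, with the letters TGATGNAA on either strand. RefSeq windows of GRCm38.p6, from 250 bases before to 50 bases after a start site, were at hand for 27 of the 37 members, 13 cytosolic and 14 mitochondrial. The element was found in 5 of the 13 cytosolic windows and in 0 of the 14 mitochondrial ones, against 3.97% of all 32815 windows. The 5 were Aars, Gars, Iars, Tars and Yars, all of them among the 8 listed ATF4-linked members with a window. Aars and Gars were called higher, while Iars, Tars and Yars were not called, with log2 fold changes of -0.02, 0.04 and 0.06. The element thus occurred in called and uncalled members alike. Sars and Eprs, also called higher, had windows without the element, and Lars, Nars and Cars, called higher too, had no window. The stretches that hold it are printed 5′ to 3′ on the strand of the gene, because the element occurred in cytosolic windows and in no mitochondrial one, and capitals mark the element. In all but Yars the element lies on the opposite strand, so that its reverse complement is printed. Its first base lies 112 bases before the start in Aars (chr8:111033694-111033753), 30 before in Gars (chr6:55037935-55037994) and 15 before in Tars (chr15:11399659-11399718). In Iars (chr13:49682115-49682144) and Yars (chr4:129189884-129189913) it begins at transcribed bases 8 and 4. For Aars and Yars the start site used lies inside the RefSeq span of the gene, past its first annotated base. Aars holds a second copy from base 10.
Aars: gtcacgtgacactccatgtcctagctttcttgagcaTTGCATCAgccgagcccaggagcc
Gars: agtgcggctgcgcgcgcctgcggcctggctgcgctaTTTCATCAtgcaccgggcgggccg
Tars: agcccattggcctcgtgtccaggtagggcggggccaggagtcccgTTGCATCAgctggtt
Iars: gttgagcctggcactgtcagtaTTGCATCA
Yars: caagcggagcgacgagctcagcTGATGCAA

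The windows were searched for other motifs in the same way. The E box CACGTG, which MYC binds, was found in 4 of 13 cytosolic and 1 of 14 mitochondrial windows, against 7.15% of all windows. The hypoxia response core occurs as ACGTG, which every CACGTG also holds, and as GCGTG. The first form was found in 6 of 13 and 4 of 14 windows, against 19.6%, and the second in 10 of 13 and 10 of 14, against 32.4%. AGGTCA, the core half-site of ROR proteins, was found in 1 of 13 cytosolic windows, that of Eprs, and in 1 of 14 mitochondrial ones, that of Fars2, against 16.3%. A match is a description of the letters and not of binding, and no match says only that the letters are not in that window.

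On the mitochondrial side, 12 of 17 members were called lower in N275D cells, against 26.1% of all genes tested, and 16 had a point estimate below 0. Lars2, the mitochondrial leucine enzyme (chr9:123366927-123462675), had 741, 777 and 775 normalized reads in WT and 572, 557 and 544 in N275D libraries. This was the largest change among all 37 members, a decrease of 27.0% in the means and a log2 fold change of -0.45 ± 0.05 (limma adjusted p = 3.85e-06). Mars2, which charges methionine (chr1:55237177-55240058), had 552, 572 and 561 reads in WT and 415, 459 and 435 in N275D libraries, a log2 fold change of -0.36 ± 0.06 (limma adjusted p = 0.000116). In both genes the genotypes were far apart compared with the spread within them. Pars2, which charges proline (chr4:106651069-106655282), was the least abundant of the 37 in reads, with 217, 251 and 257 in WT and 199, 208 and 183 in N275D libraries. Its log2 fold change of -0.30 ± 0.09 (limma adjusted p = 0.0107) had the widest error of the set, and its call was lost without N275D replicate 3 (limma adjusted p = 0.0578).

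Yars2, the tyrosine enzyme (chr16:16302965-16309640), had 661, 599 and 643 reads in WT and 576, 583 and 451 in N275D libraries, a log2 fold change of -0.25 ± 0.08 (limma adjusted p = 0.0194). Much of this came from N275D replicate 3, and without it the value was -0.13 (limma adjusted p = 0.135). Wars2, for tryptophan (chr3:99140107-99221230), had 266 ± 10 reads in WT and 227 ± 8.0 in N275D cells (SD, n = 3), with 255 in the lowest WT library and 225, 236 and 220 in the N275D libraries. Its log2 fold change was -0.23 ± 0.08 (limma adjusted p = 0.019), and its call too was lost without N275D replicate 3 (limma adjusted p = 0.0681). The Wars2 call was also lost without N275D replicate 1 (limma adjusted p = 0.0559) and without WT replicate 2 (limma adjusted p = 0.0656). The others called lower included Tars2, Rars2, Sars2, Aars2, Iars2 and Cars2, with log2 fold changes from -0.20 to -0.13. Iars2 was the most abundant mitochondrial member in reads, at 2620 ± 114 in WT and 2361 ± 63.8 in N275D cells (SD, n = 3). The calls of Cars2, Aars2 and Sars2 were among those lost without N275D replicate 3, which left Lars2, Mars2, Tars2, Rars2 and Iars2. All 17 members kept their sign in each of the 15 alternatives run.

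The 5 mitochondrial members not called were Vars2, Ears2, Fars2, Hars2 and Nars2, with log2 fold changes from -0.13 to 0.10 and 95% limits between -0.26 and 0.25. Vars2 missed the threshold by little (-0.13, limma adjusted p = 0.0777), with 545, 510 and 551 reads in WT and 492, 487 and 490 in N275D libraries, which did not overlap. Hars2 (chr18:36783202-36792562), which overlaps the head-to-head gene Hars by 4 bases, had 591 ± 10.9 reads in WT and 577 ± 10.5 in N275D cells (SD, n = 3), a log2 fold change of -0.03 (95% limits -0.15 to 0.08). Hars, its neighbor, was called lower. Ears2 charges glutamate and also loads glutamate onto the mitochondrial tRNA for glutamine, and had 317 ± 13.7 reads in WT and 295 ± 13.8 in N275D cells (SD, n = 3).

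The enzymes for the same amino acid were then paired across compartments, which gave 18 pairs, since Eprs serves glutamate and proline and both phenylalanine subunits face Fars2. In 15 of 18 pairs the log2 ratio of cytosolic to mitochondrial reads had a higher mean in N275D than in WT cells. In 5 pairs the members were called in opposite directions, always with the cytosolic member higher: Lars and Lars2, Sars and Sars2, Eprs and Pars2, Cars and Cars2, and Aars and Aars2. That direction was given beforehand, since no mitochondrial member was called higher. Of all single genes tested, 24.7% were called higher and 26.1% lower, and no background was computed for pairs. For leucine the log2 ratio was 2.60, 2.47 and 2.41 in WT and 3.21, 3.24 and 3.32 in N275D libraries, a difference of 0.76 and the largest of the pairs. For serine it was 3.87, 3.86 and 3.72 in WT and 4.23, 4.43 and 4.35 in N275D libraries. Sars2 itself had 530, 534 and 547 reads in WT and 512, 446 and 471 in N275D libraries. For proline the log2 ratio was 5.23, 5.03 and 4.90 in WT and 5.43, 5.36 and 5.59 in N275D libraries.

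The cysteine and alanine pairs moved less and were tight. For cysteine the log2 ratio was 1.52, 1.54 and 1.59 in WT and 1.98, 1.88 and 1.84 in N275D libraries. Cars2 (chr8:11514017-11550781) had 847, 831 and 853 reads in WT and 758, 765 and 782 in N275D libraries. For alanine the ratio was 3.57, 3.57 and 3.55 in WT and 3.89, 3.89 and 3.93 in N275D libraries. Aars2 (chr17:45503515-45520843) had 627, 642 and 661 reads in WT and 594, 573 and 553 in N275D libraries. None of these ratios overlapped between the genotypes. This follows from the choice of pairs, since in each of them neither member overlapped and the members moved in opposite directions. The ratios for histidine (a difference of -0.13) and for Farsa over Fars2 (-0.24) went the other way, and Farsb over Fars2 did not differ in the mean. With 3 libraries against 3, an exact two-sided permutation test of a single ratio cannot give a p below 0.1.

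**Figure D3:**
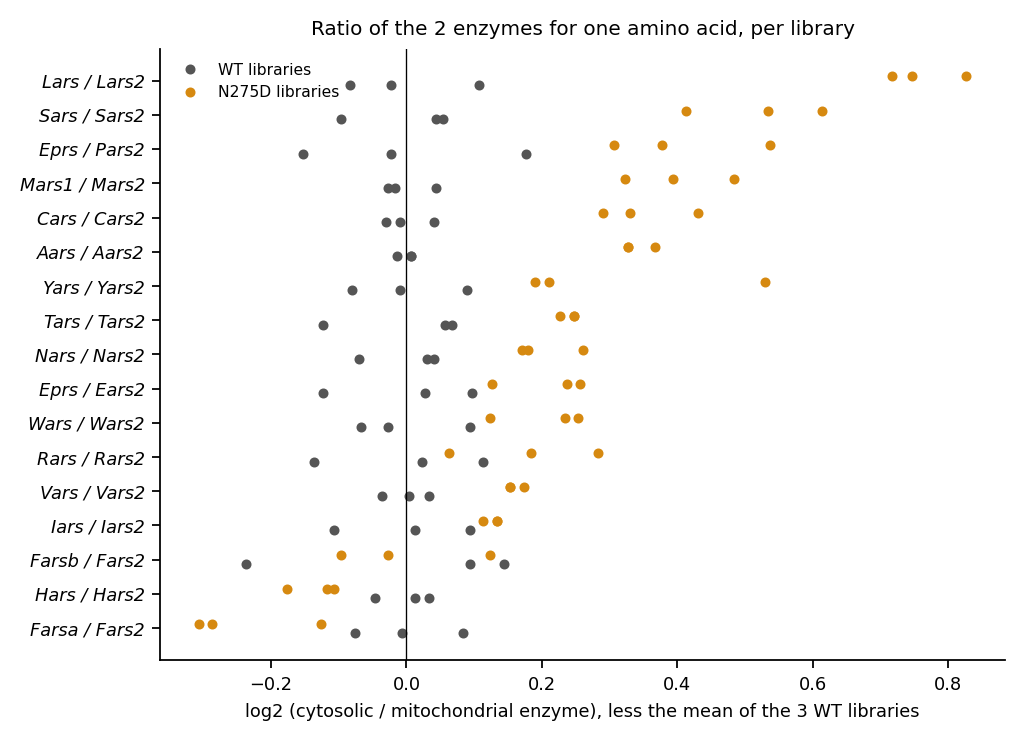
Log2 ratio of the cytosolic to the mitochondrial enzyme for the same amino acid in each library, less the mean of the 3 WT libraries (horizontal axis), for 17 of the 18 pairs, ordered by the N275D minus WT difference. WT libraries are gray and N275D libraries orange. The N275D means lie to the right in 14 of the pairs shown, farthest for Lars over Lars2 at 0.76, and to the left for Hars over Hars2 and Farsa over Fars2.

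Levels were compared between genes per kilobase of merged exon, from the GENCODE vM21 annotation of the same genome. In WT cells the cytosolic members ranged from 768 (Cars) to 3086 (Kars) normalized reads per kilobase, with a median of 1458, and the mitochondrial ones from 49.7 (Mars2) to 444 (Cars2), with a median of 177. The ranges did not overlap. The merged GENCODE exons assigned to Mars2 cover 11294 bases, the most of the set. That is more than its RefSeq span (chr1:55237177-55240058) holds, so its value per kilobase rests on this annotation and may be too low. The next lowest value was that of Wars2, at 60.3. The mRNAs called higher were found at all levels of the cytosolic range, from Cars with the least to Gars at 2773 reads per kilobase. Kars, the most abundant per length, was among those called lower.

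Genes that work beside the synthetases were read from the same fit. Of the 3 scaffold genes of the multisynthetase complex, Eef1e1 fell from 1896 ± 61.2 to 1551 ± 37.4 reads (SD, n = 3; log2 fold change -0.29, limma adjusted p = 4.58e-05). Aimp1 (0.09) and Aimp2 (-0.05) were not called. All 5 cytosolic elongation factor genes were called, 3 higher and 2 lower, against 24.7% and 26.1% of all genes. Eef1a1, whose product brings charged tRNA to the ribosome, had 130090, 132458 and 120748 reads in WT and 162182, 160621 and 161494 in N275D libraries, a log2 fold change of 0.34 ± 0.04 (limma adjusted p = 9.9e-07). Eef1d, a subunit of its exchange factor, went the other way (-0.27, limma adjusted p = 7e-06), while Eef1b2, another such subunit, rose (0.19, limma adjusted p = 9.92e-05).

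Inside mitochondria, 2 of 6 translation factor genes were called lower and 1 higher, with a median of -0.07, near the shares of all genes (26.1% lower and 24.7% higher). Tufm, the mitochondrial counterpart of Eef1a1, had 3869, 3741 and 3971 reads in WT and 3085, 3196 and 3091 in N275D libraries, a log2 fold change of -0.31 ± 0.04 (limma adjusted p = 7.43e-06). Gfm1, the translocation factor, fell by 0.31 on the log2 scale (limma adjusted p = 2.64e-05), whereas Gfm2, which recycles ribosomes, rose by 0.13 (limma adjusted p = 0.0316). Mitochondria have no glutamine synthetase for tRNA of their own and instead amidate glutamate on the tRNA with the GatCAB complex. Its genes Gatb (-0.31, limma adjusted p = 0.00402) and Gatc (-0.32, limma adjusted p = 0.0026) were called lower, and Qrsl1 (-0.16, limma adjusted p = 0.0831) was not. Mtfmt, which formylates the initiator tRNA, had a log2 fold change of -0.09 and was not called.

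Of 17 genes of the response to uncharged tRNA and amino acid shortage, 13 were called higher and 1 lower, with a median log2 fold change of 0.21, against 24.7% of all genes called higher and 26.1% called lower. This list too was chosen with earlier results of these data known. Its name describes the list, and whether uncharged tRNA or a shortage of amino acids moved its genes was not tested. Atf3, a transcription factor induced by ATF4, had 238, 304 and 318 reads in WT and 660, 678 and 617 in N275D libraries (1.19 ± 0.09, limma adjusted p = 2.26e-08). Trib3, a pseudokinase that restrains the response, had 602, 613 and 678 reads in WT and 1203, 1170 and 1205 in N275D libraries (0.92 ± 0.05, limma adjusted p = 1.35e-09). Chac1, which degrades glutathione, had 211, 259 and 242 reads in WT and 416, 410 and 432 in N275D libraries (0.82 ± 0.08, limma adjusted p = 4.06e-07). The N275D libraries were clearly above the WT ones in each. Atf4 itself rose by 0.17 (limma adjusted p = 0.000816), in mRNA only, although ATF4 is controlled mainly through its translation. Gcn1, which activates GCN2, was the member called lower (-0.21), and Mthfd2, Sesn2 and Slc7a5 were not called. Of the 13 called higher, Atf3, Trib3, Chac1, Slc7a11, Ddit3, Asns and Slc3a2 rose by 0.44 or more, above the highest synthetase value of 0.35, while the others, such as Psat1 and Shmt2 (0.12 each), lay within the range of the synthetases.

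**Figure D4:**
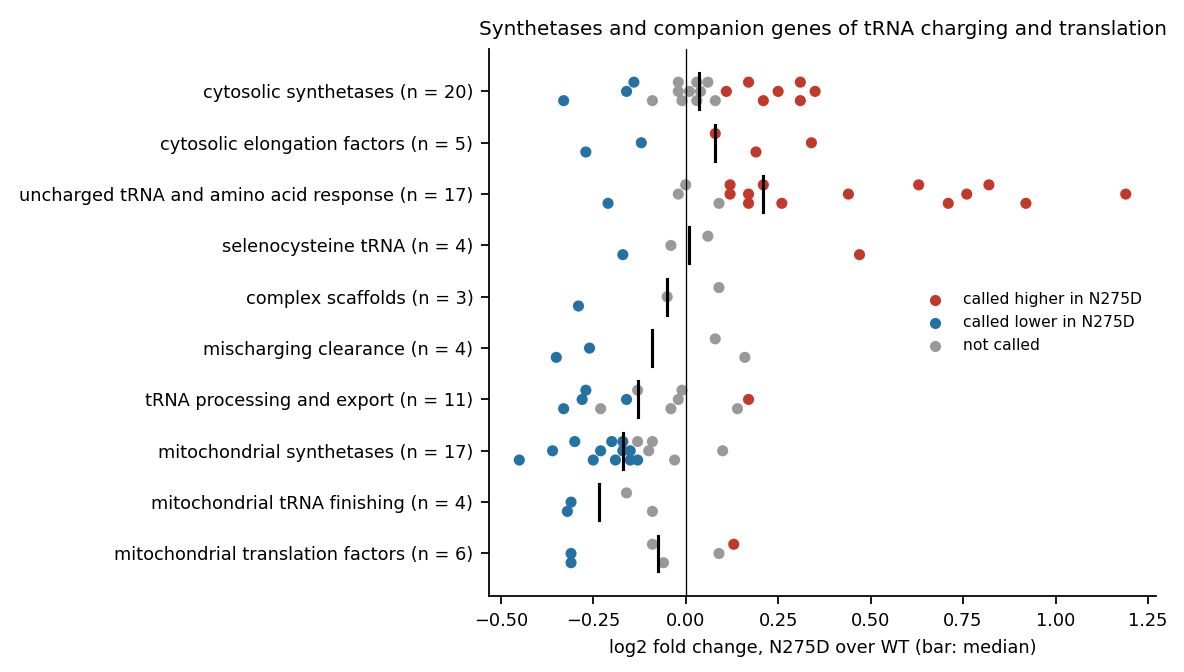
Log2 fold change in N275D over WT cells (horizontal axis) of each tested gene in the synthetase groups and in 8 companion lists, colored by call (red higher, blue lower, gray not called), with the median of each list as a black bar. The response to uncharged tRNA and amino acid shortage has the highest median, 0.21, and the mitochondrial synthetases (-0.17) and mitochondrial tRNA finishing genes (-0.23) have the lowest.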

How the data were processed

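Genotypes and replicate numbers were taken from the sample labels. Per the methods, the authors used STAR on mm10 for alignment of the trimmed reads, featureCounts for counting and DESeq2 for the comparison. The library kit differs between the methods (DNBSEQ, strand-specific) and the labels (poly-A selected, NEBNext directional). The deposited signal values were normalized by the authors. In each library 100% of them were whole multiples of 1 factor within 1e-06, but the factors lay between 0.9823 and 1.009, so near 1 that the reads so derived served only to estimate depth, and no count test was run on them. The authors' fold changes, q-values and group averages in the same table were not used. The 11908 genes whose mean was 10 or more were fitted as log2(normalized reads + 1) with limma (version 3.58.1, R 4.3.3; eBayes with a trend, 12 prior degrees of freedom), without a block. The script was tested on simulated data before use. The members and lists were chosen with earlier results of these data known. Values in all libraries are given for the 8 cytosolic and 5 mitochondrial members with the largest absolute change (for Wars2 in part, with mean and SD) and for pairs called in opposite directions. Of each list the 3 largest changes are named, or all of lists of up to 4, with values in all libraries for some. Others named are counts of 5 or fewer or were chosen after their values were seen. Gene coordinates are from RefSeq for GRCm38.p6, the build mm10, where all 37 members matched by gene number. The settings varied were the pseudocount (0.1 and 10), filters at a mean above 0 or at 100, scaling by TMM or by quantiles, eBayes with no trend, library weights, a replicate block and each library left out in turn. Protein sequences were not used here. Some genes that these rules name are not reported here by name.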

Additional observations from a re-analysis of the deposited data

How the results depend on the processing

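The counts of called members kept their direction and stayed within 1.5 times of the values reported under both other pseudocounts, both other filters, TMM scaling, library weights, eBayes without a trend and the replicate block. Quantile normalization gave 12 cytosolic members called higher and 1 lower, with a cytosolic median of 0.12. It also turned the sign of 3 uncalled members, Rars (0.04), Iars (0.02) and Wars (0.04). The cause was not tested. Leaving out each library in turn gave 6 to 7 cytosolic members higher, 3 to 4 lower, 0 mitochondrial higher and 5 to 12 lower. The lowest, 5, was without N275D replicate 3, and 8 were left without WT replicate 1, N275D replicate 1 or N275D replicate 2. The uncalled Rars lay between -0.07 and 0.01 and turned sign without WT replicate 1, WT replicate 2 or N275D replicate 2. Qars lay between 0.00 and 0.03 and turned sign without WT replicate 2. With the replicate number as a block, 7 cytosolic members were higher and 3 lower, and 10 mitochondrial ones lower. The deviations of same-numbered libraries correlated at -0.0455, 0.0407 and -0.0828, so that the numbers were not taken to pair the samples. Over all genes, between 5158 and 6586 were called, against 6056 as reported. Across the 15 alternatives, 509 of the members' values kept sign and call, 30 lost the call, 9 gained it and 7 turned sign. The planned count tests on whole reads were not run, since factors close to 1 left the derived reads in doubt. The mitochondrial members, which had fewer reads, had a median standard error of 0.06 against 0.04 for the cytosolic ones; the part of counting error in it was not separated.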

Other observations

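Of 4 genes that clear wrongly charged tRNA, 2 were called lower and 0 higher, against 26.1% and 24.7% of all genes tested. Dtd1, a deacylase that removes D-amino acids from tRNA, had 590, 538 and 545 normalized reads in WT and 442, 449 and 424 in N275D libraries (log2 fold change -0.35, limma adjusted p = 0.000215). Aarsd1, which removes serine from alanine tRNA, fell from 833 ± 21.3 to 697 ± 29.2 reads (SD, n = 3; limma adjusted p = 0.000776). Dtd2 (0.16) and Prorsd1 (0.08) were not called. In the selenocysteine pathway, in which serine on the tRNA is converted, Pstk, the kinase of the first step, had 126, 149 and 160 reads in WT and 210, 195 and 199 in N275D libraries (log2 fold change 0.47, limma adjusted p = 0.000829). Secisbp2, which reads the selenocysteine signal, was lower (-0.17, limma adjusted p = 0.025), and Sepsecs (0.06) and Eefsec (-0.04) were not called. Of 11 genes of tRNA processing and export, 4 were called lower and 1 higher, with a median of -0.13, against the same shares of all genes. Among those called lower were Tsen54 (-0.28, limma adjusted p = 0.00329), a subunit of the tRNA splicing endonuclease, and Elac2 (-0.27, limma adjusted p = 8.8e-05), which trims tRNA 3′ ends in the nucleus and in mitochondria. Xpot, the export receptor of tRNA, was the member called higher, from 4105 ± 168.0 to 4604 ± 22.4 reads (SD, n = 3; limma adjusted p = 0.00192). Tarsl2, the threonine enzyme paralog that the symbol rule leaves out, had 362 ± 12.3 reads in WT and 404 ± 16.6 in N275D cells (SD, n = 3) and lay at the threshold (log2 fold change 0.16, limma adjusted p = 0.0502).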
